A study of Mus musculus with 11 samples.

Results

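The genes described here are 38 genes of the endoplasmic reticulum (ER) that fold, modify, insert or dispose of secretory and membrane proteins, or that sense and signal ER load. They were chosen by name from a list of ER chaperone and unfolded protein response genes, with no threshold on measured values. Earlier results of these data were known when they were chosen. All 38 were found among the 23071 genes of the expression table. The list holds 6 sensors and transcription factors, 11 genes of the BiP and HSP90 chaperone system, 6 lectin chaperones and disulfide isomerases, 8 genes of ER-associated degradation, and 7 genes of the translocon and ER membrane.

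RNA sequencing was done on 11 libraries from C57BL/6 mice. Wild-type progenitor B cells (n = 3) and progenitor B cells carrying 1 intact copy of the transcription factor gene Ebf1 (Ebf1+/-, n = 3) came from bone marrow and were purified on columns. Each of these 6 libraries was a pool, of 3, 7 and 6 mice for the wild type and of 3, 6 and 7 mice for Ebf1+/-. Leukemic B cells (n = 5) came from lymph node cell suspensions of Pax5+/- x Ebf1+/- mice, which lack 1 copy of each of these B-lineage transcription factor genes. They were flash frozen, and each library came from 1 mouse. Leukemic state, Pax5 genotype, tissue, column purification and pooling therefore differ together between the leukemias and both bone marrow groups and cannot be told apart, and against the wild type the Ebf1 genotype differs as well. The aligner in the submitters' processing notes also differs for the Ebf1+/- libraries, so that the aligner differs, and cannot be told apart from the groups, in both comparisons that include them.

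The library totals recovered from the FPKM values lay between 8506680 and 15313920 reads. One read on a transcript of 2 kb was worth 0.0327 to 0.0588 FPKM (reads per kilobase of gene length, scaled to library size), so that counting error is small for every member except Derl3, which rested on as few as 20 reads in a library. Of markers fixed for progenitor B cells, the summed level was 2643 to 4483 FPKM in the wild type, 1897 to 5431 in Ebf1+/- and 3452 to 4676 in the leukemias. These sums hide markers that moved in opposite directions. From wild type to leukemia, mean Vpreb1 went from 247 to 918 FPKM and Igll1 from 233 to 836. Cd79b went from 970 to 516, Pax5 from 222.5 to 119 and Rag1 from 237 to 125. Of the 12 markers, 3 had a positive log2 fold change. Markers of other cells differed between groups. Granulocyte precursor markers summed to 234.8 to 320.9 FPKM in the wild type, 424.2 to 2599 in Ebf1+/- and 0.127 to 3.00 in the leukemias. Mature granulocyte markers summed to 314.4 to 3121 FPKM in the wild type, 1496 to 9613 in Ebf1+/- (highest in library 1) and 1.97 to 9.04 in the leukemias. Erythroid markers summed to 105.9 to 655.3 FPKM in the wild type and 266.0 to 651.9 in Ebf1+/-, and megakaryocyte markers to 80.5 to 471.9 and 147.5 to 4206. In the leukemias these sums were at no more than 0.972 and 1.64 FPKM. Not every list was that low there. Monocyte and macrophage markers summed to 388.2 to 652.3 FPKM in the wild type and 481.4 to 2017 in Ebf1+/-. They summed to 56.1 to 155.3 FPKM in the leukemias. Plasmacytoid dendritic cell markers summed to 24.3 to 100.6, 31.9 to 84.0 and 1.03 to 46.4 FPKM in the same order. Leukemia 1 (46.4 FPKM) and leukemia 3 (31.7 FPKM) stood above the others. Natural killer cell markers summed to 11.55 to 22.1, 16.8 to 54.0 and 13.6 to 49.7 FPKM. The part of these cells in the levels of the members was not tested. Wild-type library 2 and Ebf1+/- library 2 were the most alike of all pairs (Pearson's r across 11170 genes of 0.989, against at most 0.984 within a group), and Ebf1+/- library 3 carried the highest megakaryocyte marker sum (4206 FPKM). Counts for Ebf1+/- against the wild type are given with and without these libraries.

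Secretory and membrane proteins enter the ER through the Sec61 channel and are folded there by chaperones, among them the HSP70 protein BiP, the HSP90 protein GRP94, the lectins calnexin and calreticulin, and the protein disulfide isomerases. When unfolded proteins accumulate, the ER membrane sensors IRE1 alpha, PERK and ATF6 start the unfolded protein response, which slows translation and raises the transcription of chaperones and of the degradation machinery that returns misfolded proteins to the cytosol. In B-lineage cells the IRE1 alpha target XBP1 is known for its part in building the secretory apparatus of plasma cells.

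ATF6 and XBP1 are known to act on ER stress elements in promoters, and the promoter stretches with such elements are shown first because genes that share them were not all called in 1 direction. Exact matches were sought on both strands of RefSeq promoter windows (GRCm38.p6, 250 bases before to 50 bases after the gene start), which were given for 30 of the 38 members. The ER stress element ERSE was searched as CCAAT and CCACG with 9 bases of any kind between them, ERSE-II as ATTGG and CCACG with 1 base of any kind between them, the XBP1 core as TGACGTGG and the C/EBP-ATF composite element (CARE) as TGATGNAA, and a window was counted for each motif it held. Below, the match is in capitals within 20 bases on either side, read 5′ to 3′ on the strand of the gene.
Hspa5: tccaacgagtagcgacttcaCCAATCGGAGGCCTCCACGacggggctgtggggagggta
Pdia6: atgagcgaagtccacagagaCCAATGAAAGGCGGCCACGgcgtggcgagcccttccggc
Canx: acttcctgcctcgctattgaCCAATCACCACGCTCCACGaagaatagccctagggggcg
Calr: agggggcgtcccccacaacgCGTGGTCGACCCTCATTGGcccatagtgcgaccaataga
Hsp90b1: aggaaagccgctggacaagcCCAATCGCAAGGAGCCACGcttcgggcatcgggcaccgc
Syvn1: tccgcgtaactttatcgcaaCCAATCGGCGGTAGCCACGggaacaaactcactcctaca
Herpud1: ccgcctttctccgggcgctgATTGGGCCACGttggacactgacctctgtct

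These stretches lie at chr2:34772005-34772063 on the plus strand (Hspa5), chr12:17266471-17266529 on the plus strand (Pdia6) and chr11:50325780-50325838 on the minus strand (Canx). The Calr stretch lies at chr8:84847055-84847113 on the minus strand, with its match on the strand opposite to the gene. The Hsp90b1 stretch lies at chr10:86705618-86705676 on the minus strand, and the same window holds another ERSE match at bases -107 to -89. The Syvn1 stretch is at chr19:6046512-6046570 and the Herpud1 stretch at chr8:94386357-94386407, both on the plus strand. The ERSE letters were found in 9 of the 30 members with a window (30.0%) and in 37 of all 27025 genes with one (0.137%). Among the 8458 genes with a window that were tested in leukemia against wild type, 13 held them (0.154%). The members were chosen by name as unfolded protein response genes, so their higher ERSE share follows from that choice and is not a result of these data. Besides the 6 shown, Dnajc3, Creld2 and Derl3 held a match. ERSE-II letters were found in Herpud1 and Dnajb11 (6.67% of members, 0.0444% of all genes and 0.0946% of those tested). The XBP1 core letters were found in 0 of 30 members, in 0.714% of all genes and in 1.03% of those tested. The CARE letters were found in Herpud1 alone among the members (3.33%), beside 4.51% of all genes and 2.70% of those tested. A match describes letters in a window and is not a bound site.

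**Figure D1:**
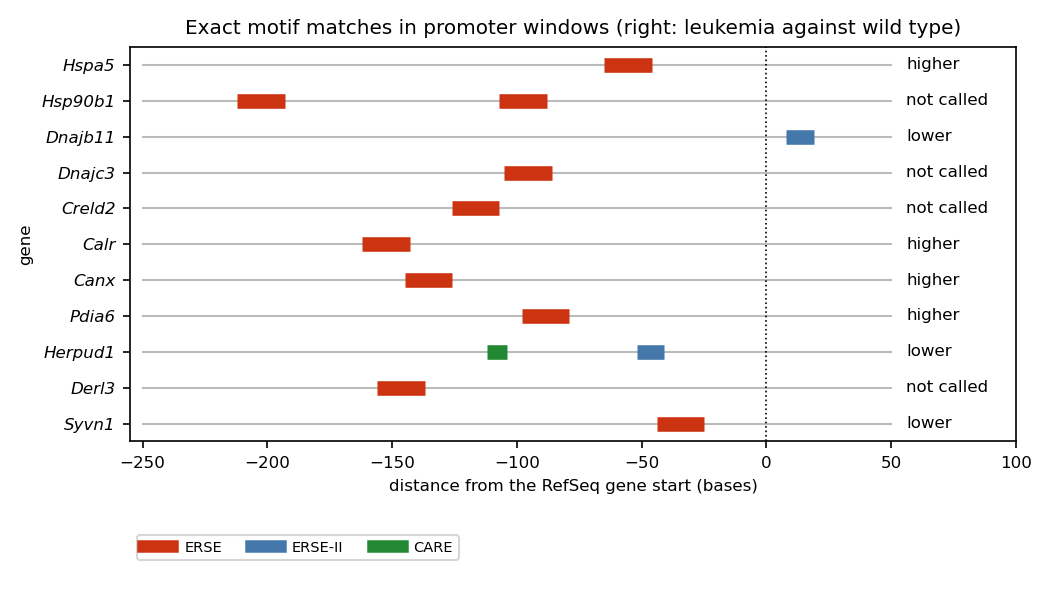
Positions of exact motif matches in the promoter windows of the 11 members that hold one, in bases from the RefSeq gene start on the horizontal axis, with each gene's call in leukemia against wild type at the right. The 9 genes with an ERSE match comprise 4 called higher (Hspa5, Calr, Canx, Pdia6), 1 called lower (Syvn1) and 4 not called. Of all genes tested, 20.7% were called higher and 24.1% lower.

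In the leukemias against the wild type, 13 of the 38 members were called higher, 8 lower and 17 were not called. A gene is called here when its adjusted p (limma on log2(FPKM + 1), Benjamini-Hochberg over all genes tested) is under 0.05, and fold changes are on that log2 scale. Of all 10968 genes tested, 44.8% were called (20.7% higher and 24.1% lower), so the members' 34.2% higher and 21.1% lower are to be read against those shares. The median log2 fold change of the members was 0.02, against -0.04 for all genes. All 38 members passed the filter of a mean of at least 1 FPKM in each comparison. The leukemia and wild-type values did not overlap for 13 members that were higher (34.2%) and 8 that were lower (21.1%). These were the same 21 members that were called. Of all genes tested, 46.3% did not overlap (21.2% higher and 25.1% lower).

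The roles differed in direction. All 6 lectin chaperones and isomerases were called higher (median log2 fold change 0.56), while 4 of 6 sensors and transcription factors were called lower and 0 higher (median -0.70). Of the BiP and HSP90 system 4 of 11 were called higher and 1 lower (median 0.31). Of ER-associated degradation 0 of 8 were called higher and 3 lower (median -0.21), and of the translocon and ER membrane group 3 of 7 were called higher and 0 lower (median 0.16). They stand beside 20.7% of all genes called higher and 24.1% called lower. These counts are descriptions of named groups, which were not tested as sets. The members and these groups were chosen with earlier results of these data known. The counts are therefore no independent evidence of a contrast between roles. In a bulk sample, fewer cells of a type and less RNA per cell cannot be told apart.

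**Figure D2:**
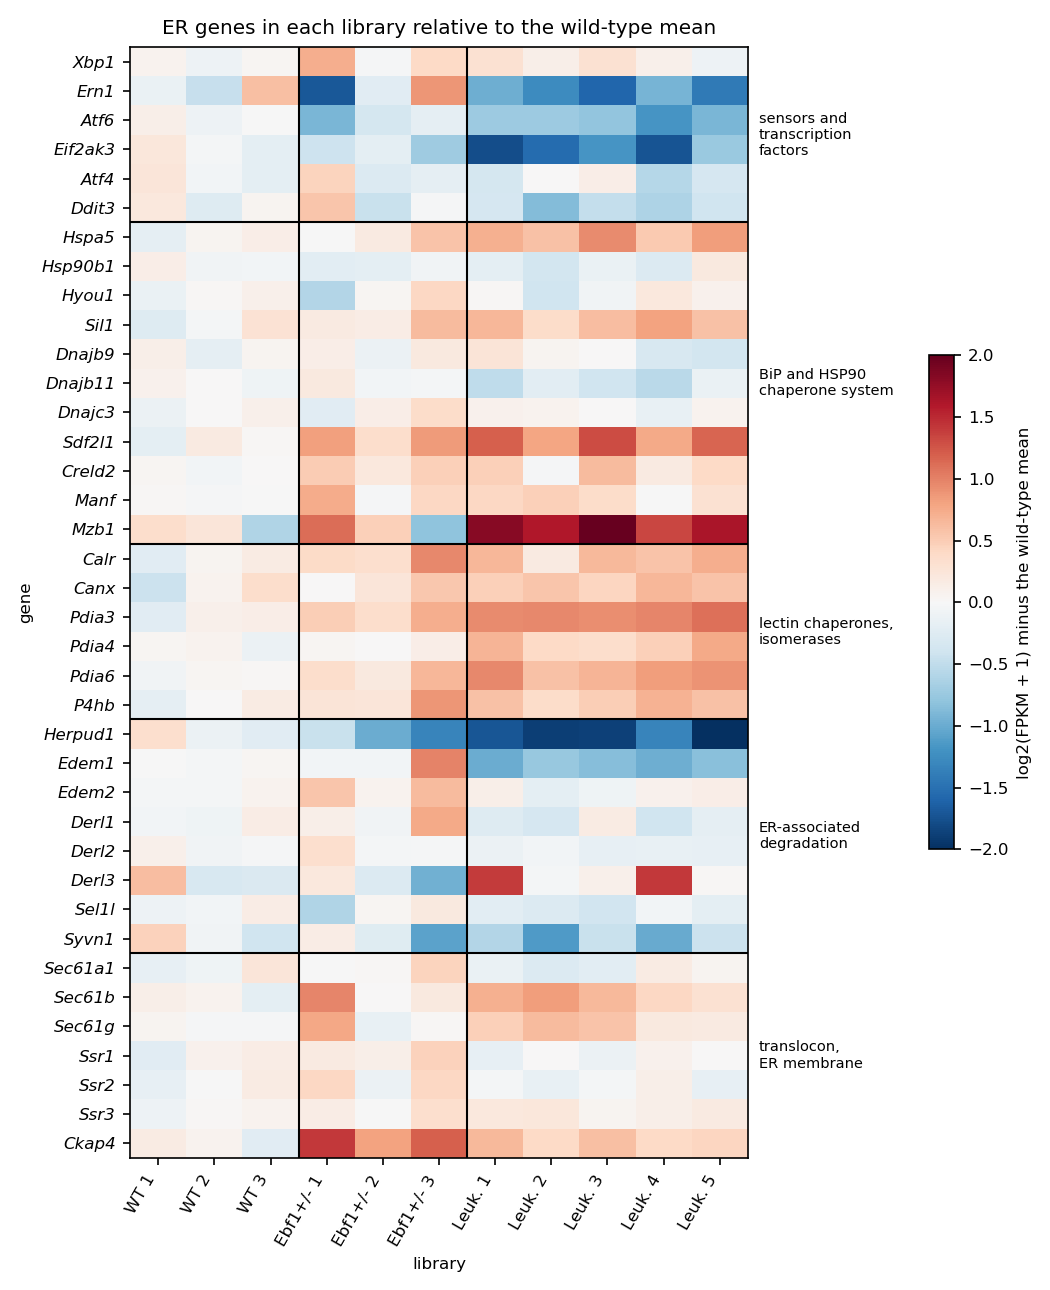
Each of the 38 genes (rows, ordered by role) in each of the 11 libraries (columns), coloured by log2(FPKM + 1) minus the wild-type mean. The isomerase rows are red in all 5 leukemias, and the rows of Ern1, Atf6, Eif2ak3, Herpud1 and Edem1 are blue in all 5. Xbp1, Atf4 and Hsp90b1 each lie above the wild-type mean in some leukemias and below it in others.

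Among the sensors, Eif2ak3 (PERK, the kinase that phosphorylates the translation factor eIF2 alpha; chr6:70844515-70905245, GRCm38) stood at 40.5, 33.6 and 30.1 FPKM in the 3 wild-type libraries. It stood at 25.7, 30.0 and 20.6 FPKM in Ebf1+/- and at 9.39, 11.2, 14.7, 9.72 and 20.1 FPKM in the leukemias. Every leukemia lay below every bone marrow library. The log2 fold change of the leukemias against the wild type was -1.39 (SE 0.23, limma adjusted p = 0.00158).

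Atf6 (the sensor cleaved in the Golgi to release a transcription factor; chr1:170704674-170867771) stood at 18.6, 15.7 and 16.8 FPKM in the wild type, at 8.52, 13.2 and 14.9 in Ebf1+/-, and at 9.86, 9.90, 9.45, 6.96 and 8.59 in the leukemias. The leukemias lay below the wild type without overlap, and Ebf1+/- library 1 lay among them (-0.86, SE 0.13, adjusted p = 0.000824 against the wild type). Ern1 (IRE1 alpha, the kinase and nuclease that splices Xbp1 mRNA; chr11:106394650-106487852) stood at 5.69, 4.33 and 10.2 FPKM in the wild type, at 1.26, 5.29 and 12.6 in Ebf1+/-, and at 2.72, 2.07, 1.46, 2.86 and 1.77 in the leukemias. The Ebf1+/- libraries spanned the range of both other groups. The fold change of Ern1 against the wild type was -1.23 (SE 0.26, adjusted p = 0.00451), and it missed the threshold when all groups shared 1 fit (adjusted p = 0.0564).

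The transcription factors below these sensors moved less. Xbp1 (chr11:5520659-5525893) stood at 33.3, 29.5 and 32.7 FPKM in the wild type, at 53.2, 31.4 and 42.2 in Ebf1+/-, and at 39.3, 34.7, 39.6, 34.3 and 29.5 in the leukemias. The groups overlapped, with a log2 fold change of 0.15 (SE 0.11, adjusted p = 0.313), and a gene-level table does not tell spliced from unspliced Xbp1. Atf4, whose translation PERK signalling favours, stood at 123, 99.7 and 90.5 FPKM in the wild type, at 142, 85.2 and 91.5 in Ebf1+/-, and at 81.2, 105, 113, 69.8 and 82.1 in the leukemias, again with overlap (-0.22, SE 0.17, adjusted p = 0.321). Ddit3 (CHOP, an Atf4 target linked to cell death) stood at 19.2, 13.7 and 17.3 FPKM in the wild type, at 24.7, 11.9 and 16.3 in Ebf1+/-, and at 13.0, 8.68, 11.7, 10.5 and 12.3 in the leukemias. The leukemias lay below the wild type by -0.54 (SE 0.15, adjusted p = 0.0183). The Ddit3 call was lost without wild-type library 1 (adjusted p = 0.075) or 3 (0.0585) and when all groups shared 1 fit (0.0661).

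Hspa5 (BiP, the main ER HSP70 chaperone; chr2:34771970-34777547) stood at 145, 169.9 and 179 FPKM in the wild type, at 163, 186 and 245 in Ebf1+/-, and at 269.6, 247, 317, 237 and 293 in the leukemias. Every leukemia lay above every wild-type library, and Ebf1+/- library 3 lay within the leukemia range. The fold change against the wild type was 0.72 (SE 0.12, adjusted p = 0.00168). Hsp90b1 (GRP94, the ER HSP90), which also holds ERSE letters, stood at 340.5, 293 and 297 FPKM in the wild type, at 266, 269 and 294 in Ebf1+/-, and at 269, 239, 283, 255 and 355 in the leukemias. Its groups overlapped (-0.16, SE 0.13, adjusted p = 0.371). Hsp90b1 shares 10.3% of its exonic bases with a gene on the opposite strand, and whether the counting used strand is not given in the sources used here.

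The largest rise among the 38 members was that of Mzb1, an ER protein of B cells that takes part in immunoglobulin assembly (chr18:35647267-35649367). It stood at 258, 239 and 132 FPKM in the wild type, at 438, 281 and 115 in Ebf1+/-, and at 710.4, 614, 844, 512 and 629 in the leukemias. All leukemias lay above all 6 bone marrow libraries, with a log2 fold change of 1.69 against the wild type (SE 0.23, adjusted p = 0.000581). Mzb1 shares 57.2% of its exonic bases with a gene annotated as SPATA24 on the same strand, so its level is uncertain to the extent that reads of the other gene entered it. Sdf2l1, a partner of ER HSP40 proteins, stood at 27.5, 35.8 and 32.1 FPKM in the wild type, at 56.6, 40.7 and 57.6 in Ebf1+/-, and at 73.8, 55.5, 79.2, 54.4 and 71.9 in the leukemias. The wild type was lowest without overlap (1.04, SE 0.15, adjusted p = 0.000767).

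Markers of plasma cells, which express Mzb1 and many ER chaperones strongly, were also read beside these genes. Their sum was 223.9 to 310.3 FPKM in the wild type, 133.7 to 223.2 in Ebf1+/- and 77.75 to 175.5 in the leukemias. The defining markers Prdm1 and Tnfrsf17 were low in every group. In the wild type, Ebf1+/- and leukemias, Prdm1 had means of 0.971, 0.330 and 0.260 FPKM and Tnfrsf17 of 0.0716, 0.127 and 0.0935. In the same order, the means were 132, 67.45 and 18.5 FPKM for Irf4, 64.9, 43.2 and 23.65 for Slamf7, and 38.7, 25.4 and 13.7 for Sdc1. Tnfrsf13b was at 26.5, 19.2 and 23.7 FPKM. Jchain, the joining chain of secreted immunoglobulin, stood at 3.35 to 8.42 FPKM in the wild type and at 93.1, 14.7, 21.97, 28.9 and 21.5 in the leukemias. Immunoglobulin genes with names beginning Ighv, Ighd, Ighj, Ighg, Igkv, Igkj, Igkc or Iglv were absent from the expression table (0 genes) and could not be read. Other immunoglobulin chain genes were not analysed here.

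Of the other BiP partners, Sil1, a nucleotide exchange factor of BiP, was 11.9 ± 2.47 FPKM (SD, n = 3) in the wild type and 18.5 ± 2.06 (n = 5) in the leukemias (0.61, SE 0.14, adjusted p = 0.00793). Dnajb11, an ER HSP40 protein, was 36.9 ± 2.19 and 28.7 ± 3.69 FPKM (-0.36, SE 0.11, adjusted p = 0.0316), a call lost without wild-type library 1 (0.0981) or 2 (0.0855), without leukemia 1 (0.064), 3 (0.0599) or 4 (0.0572), and with quantile (0.0519) or median-ratio scaling (0.052). Hyou1, Dnajb9, Dnajc3, Creld2 and Manf were not called. Manf, a secreted ER stress protein, had an adjusted p of 0.0519 and passed without leukemia 4 (0.00672) and with quantile (0.032) or median-ratio scaling (0.0459). Creld2, another such protein, had 0.0885 and passed without leukemia 2 (0.0213).

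The isomerases gave the most uniform picture. Pdia3 (the isomerase that works with calnexin and calreticulin; chr2:121413775-121438687) stood at 101, 127 and 131 FPKM in the wild type, at 168, 152 and 197 in Ebf1+/-, and at 229.8, 233, 228, 235 and 257 in the leukemias. The 3 groups did not overlap, in the order wild type, Ebf1+/-, leukemia. Against the wild type, the leukemias were higher by 0.98 (SE 0.10, adjusted p = 0.00015). Pdia6 (chr12:17266545-17284770) stood at 78.8, 84.6 and 84.4 FPKM in the wild type, at 105, 94.7 and 131 in Ebf1+/-, and at 162, 125, 133, 148 and 155 in the leukemias. The wild type was again lowest without overlap, while Ebf1+/- library 3 reached the lower leukemias (0.80, SE 0.10, adjusted p = 0.000413).

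P4hb, the classical protein disulfide isomerase, stood at 119, 136 and 152 FPKM in the wild type, at 161, 160.2 and 249.9 in Ebf1+/-, and at 203, 174, 190.5, 219.9 and 202 in the leukemias. The highest of all 11 values was that of Ebf1+/- library 3, and the leukemias lay above the wild type (0.55, SE 0.11, adjusted p = 0.00406). Pdia4 was 67.1 ± 4.80 FPKM in the wild type, 69.9 ± 2.96 in Ebf1+/- and 97.6 ± 12.3 in the leukemias (0.53, SE 0.12, adjusted p = 0.00575). Calreticulin (Calr) was 252 ± 33.9, 376 ± 95.6 and 372 ± 51.9 FPKM, with an adjusted p of 0.0132 against the wild type that rose to 0.0556 without wild-type library 1 and to 0.0557 with quantile scaling. Calnexin (Canx) was 124 ± 32.8, 146 ± 27.4 and 176 ± 11.6 FPKM (adjusted p = 0.0221), and its call was lost without wild-type library 1 (0.0537) or 2 (0.0524).

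**Figure D3:**
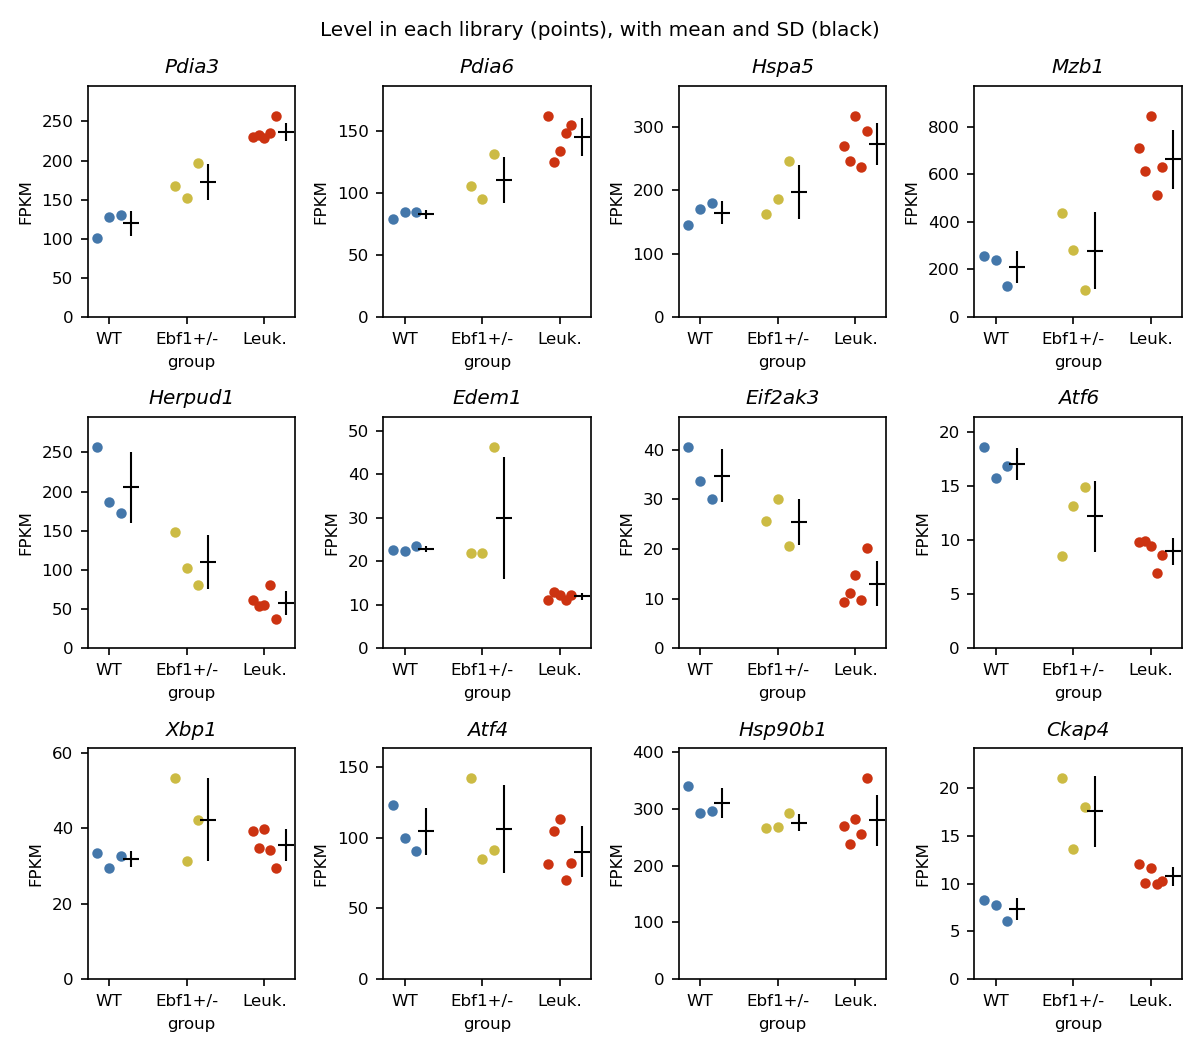
FPKM in each library for 12 members, with points for libraries and the mean and SD in black, by group. The leukemias lie above the wild type for Pdia3, Pdia6, Hspa5 and Mzb1, below it for Herpud1, Edem1, Eif2ak3 and Atf6, and overlap it for Xbp1, Atf4 and Hsp90b1, while Ckap4 is highest in Ebf1+/-.

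Genes of ER-associated degradation went the other way where they were called. Herpud1 (a scaffold of the ubiquitin ligase complex at the ER membrane; chr8:94386438-94395377) stood at 257, 186 and 173 FPKM in the wild type, at 148, 102 and 80.7 in Ebf1+/-, and at 61.2, 53.9, 54.8, 80.5 and 37.3 in the leukemias. The wild type was highest without overlap, and leukemia 4 lay just below the lowest Ebf1+/- library. Its log2 fold change of -1.84 (SE 0.23, adjusted p = 0.000334) was the largest fall among the members. Herpud1 was the fourth most abundant member in the wild type by mean FPKM.

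Edem1 (a lectin that hands misfolded glycoproteins to degradation; chr6:108828641-108859356) stood at 22.6, 22.3 and 23.6 FPKM in the wild type, at 21.9, 21.9 and 46.3 in Ebf1+/-, and at 11.02, 13.0, 12.2, 11.1 and 12.3 in the leukemias. Every leukemia lay below every bone marrow library, and Ebf1+/- library 3 stood apart from the others (-0.88, SE 0.09, adjusted p = 0.000125 against the wild type). Syvn1 (HRD1, the ubiquitin ligase of the pathway) stood at 107, 74.3 and 59.0 FPKM in the wild type, at 86.5, 65.5 and 36.5 in Ebf1+/-, and at 51.2, 35.1, 56.7, 38.3 and 57.4 in the leukemias. The leukemias lay just below the lowest wild-type library (-0.72, SE 0.23, adjusted p = 0.0282). The Syvn1 call was lost without wild-type library 1 (0.113) or 2 (0.0661), without leukemia 2 (0.0519) or 4 (0.0543), and when all groups shared 1 fit (0.0658).

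The other 5 degradation genes, Edem2, Derl1, Derl2, Derl3 and Sel1l, were not called. Derl3, a derlin, was the lowest member in the wild type by mean FPKM. It stood at 5.53, 2.40 and 2.48 FPKM in the wild type, at 3.91, 2.54 and 1.19 in Ebf1+/-, and at 10.2, 3.14, 3.56, 10.4 and 3.34 in the leukemias. Leukemias 1 and 4 stood apart from the other 3 and the groups overlapped (0.58, SE 0.42, adjusted p = 0.289).

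In the translocon and ER membrane group, Sec61b, the beta subunit of the Sec61 channel, stood at 166, 161 and 134 FPKM in the wild type, at 302, 153 and 175 in Ebf1+/-, and at 251, 274, 241, 203 and 189.5 in the leukemias. The leukemias lay above the wild type (0.58, SE 0.14, adjusted p = 0.00884), and the highest value of all was Ebf1+/- library 1. Sec61g, the gamma subunit, stood at 78.8, 74.7 and 74.8 FPKM in the wild type, at 131, 68.2 and 77.0 in Ebf1+/-, and at 106, 118, 114, 87.1 and 86.1 in the leukemias. Its call (0.41, SE 0.12, adjusted p = 0.0248) was lost without any 1 of the wild-type libraries (0.0504, 0.078 and 0.0696), without leukemia 3 (0.0522) and when all groups shared 1 fit (0.12). The alpha subunit Sec61a1 was 61.8 ± 9.89 FPKM in the wild type and 58.3 ± 7.66 in the leukemias and was not called, nor were Ssr1, Ssr2 and Ssr3 of the translocon-associated complex.

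Ckap4, an ER sheet protein (chr10:84526305-84534062), stood at 8.29, 7.75 and 6.11 FPKM in the wild type, at 21.1, 13.6 and 18.1 in Ebf1+/-, and at 12.1, 10.03, 11.6, 10 and 10.2 in the leukemias. The 3 groups did not overlap, with Ebf1+/- highest and the wild type lowest. Against the wild type the leukemias were higher by 0.50 (SE 0.12, adjusted p = 0.00985).

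**Figure D4:**
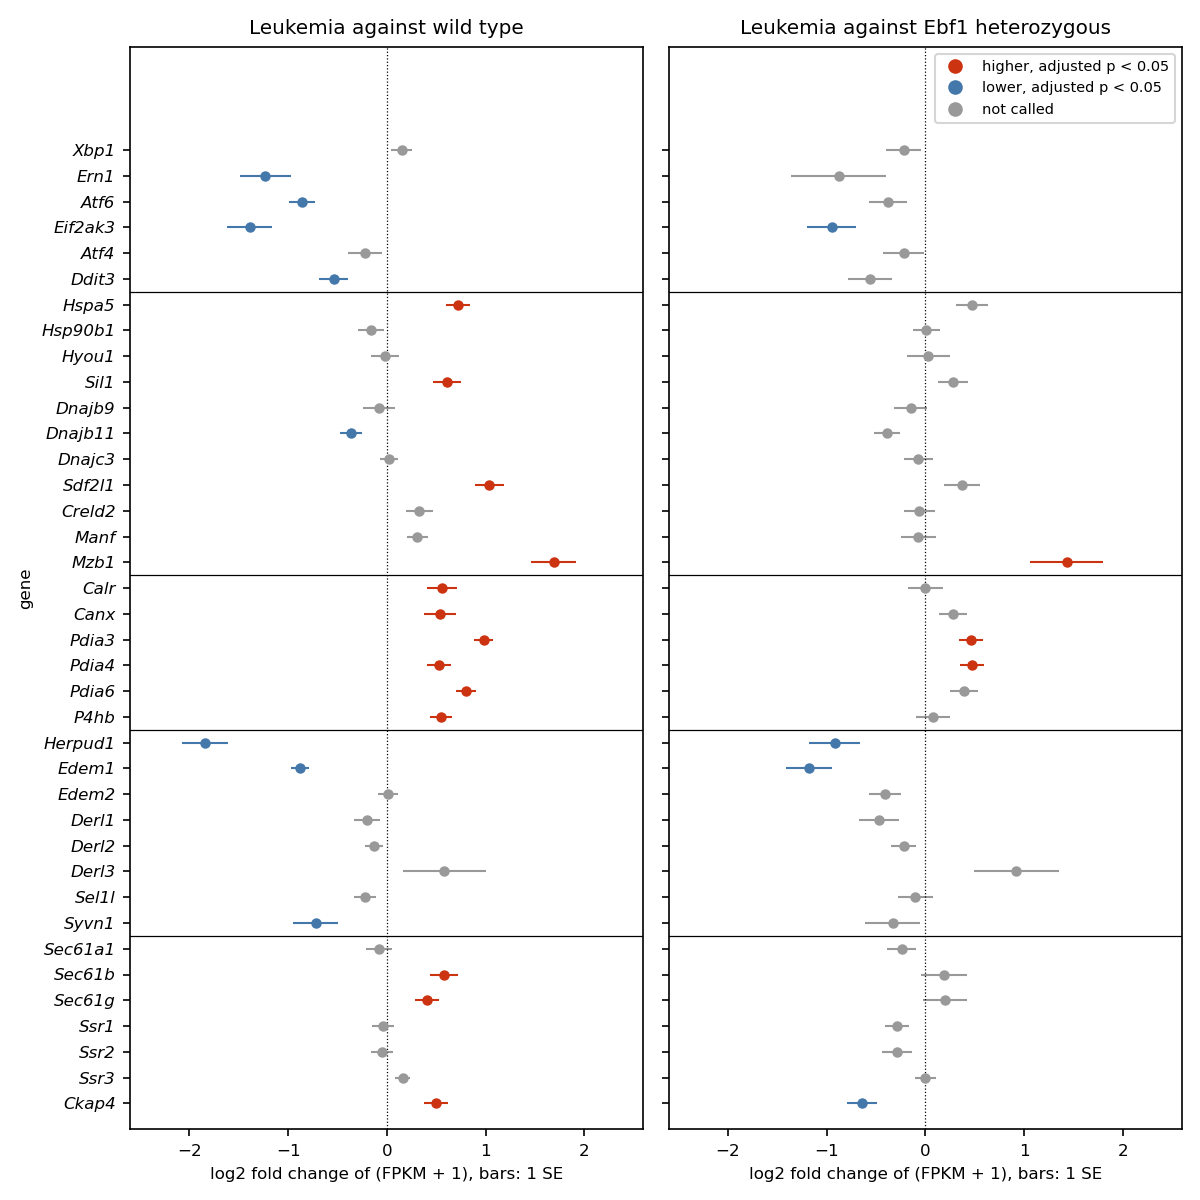
Log2 fold change of (FPKM + 1) with its SE for all 38 genes, in role order, for leukemia against wild type and leukemia against Ebf1 heterozygous, coloured by call. The 6 lectin chaperones and isomerases are all called higher in the first comparison and 2 of them (Pdia3, Pdia4) in the second.

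Of the 21 calls against the wild type, 13 held in all 16 alternatives in which the gene was tested. These are Atf6, Eif2ak3, Hspa5, Sdf2l1, Mzb1, Pdia3, Pdia4, Pdia6, P4hb, Herpud1, Edem1, Sec61b and Ckap4.

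Ebf1+/- progenitors were next compared with the wild type. No member was called, nor was any of the 11167 genes tested (0.0% called by limma, and 0 by voom on recovered reads). At an unadjusted limma p under 0.05 there were 7 of the 38 members and 863 of the 11167 genes. Of the members 28 of 38 (73.7%) had a positive log2 fold change, against 54.0% of all genes, with a median of 0.22 against 0.03. That median was 0.08 without Ebf1+/- library 3, 0.20 without Ebf1+/- library 1, 0.14 without wild-type library 1 and 0.29 without both libraries numbered 2. Without Ebf1+/- library 1, the fold change of 8 members changed sign. The positive members were 27 without Ebf1+/- library 3 and 29 without both libraries numbered 2.

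The 2 groups did not overlap for 7 members that were higher in Ebf1+/- (18.4%, against 7.53% of all genes tested) and for 3 that were lower (7.89%, against 8.11%). The higher ones were Sdf2l1, Creld2, Calr, Pdia3, Pdia6, P4hb and Ckap4, and the lower ones were Atf6, Eif2ak3 and Herpud1. Without Ebf1+/- library 3 the counts were 8 higher (12.4% of all genes) and 5 lower (10.2%), and without both libraries numbered 2 they were 15 higher (18.5% of all genes) and 4 lower (18.6%). Within the 3 same-numbered pairs, 17 members (44.7%) were higher in Ebf1+/- in every pair, against 24.6% of all genes, and 5 (13.2%) were lower in every pair, against 20.4%. Beyond the genes without overlap, the pairs ran higher for Xbp1, Hspa5, Sil1, Dnajb9, Manf, Canx, Edem2, Derl1, Sec61a1 and Ssr1 and lower for Hsp90b1 and Syvn1. Ckap4 had a log2 fold change of 1.14 (SE 0.21, adjusted p = 0.228) and Herpud1 of -0.92 (SE 0.26, adjusted p = 0.478). When all groups shared 1 fit, Ckap4 passed with an adjusted p of 0.0236. Granulocyte precursor markers moved in the same libraries: all 5 were higher in Ebf1+/- without overlap, and Mpo alone stood at 355.7, 183.6 and 1105 FPKM. Their part in the levels of these members was not tested.

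Ebf1+/- library 3 was the highest of its group for 23 of 38 members (60.5%), against 27.7% of all genes tested. The same library had the lowest progenitor B marker sum of all 11 (1897 FPKM) and the highest granulocyte precursor sum (2599 FPKM) beside its megakaryocyte markers, and their part in this was not tested. The median SD of the members on the log2 scale was 0.307 in Ebf1+/-, 0.162 in the wild type and 0.186 in the leukemias, beside 0.293, 0.177 and 0.188 for all genes. The SD was larger in Ebf1+/- than in the wild type for 33 of 38 members (86.8%) and for 74.3% of all genes. Without Ebf1+/- library 3 that was 23 of 38 members (60.5%, against 61.7% of all genes), with a median SD of 0.259, and without both libraries numbered 2 it was 26 (68.4%, against 68.4%), with a median SD of 0.351. Among the isomerases and lectins the median level relative to the wild type was 0.30, 0.24 and 0.69 in the 3 Ebf1+/- libraries and 0.67, 0.47, 0.57, 0.69 and 0.74 in the 5 leukemias. Library 3 alone of the Ebf1+/- libraries reached the leukemia range.

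The leukemias were also compared with the Ebf1+/- progenitors, a comparison that shares its leukemia libraries with the one above. Here 3 members were called higher (7.89%) and 4 lower (10.5%), where 21.6% of 11161 genes were called, 9.31% higher and 12.3% lower. The median log2 fold change of the members was -0.08, against -0.02 for all genes. Without overlap between the groups were 3 higher and 7 lower members, against 29.1% of all genes (12.9% higher and 16.2% lower). The share of called members was thus below or near that of all genes in both directions. With quantile scaling, the share of higher genes among all calls went from 43.1% to 57.5% (1538 higher and 1139 lower), while the same 7 members were called.

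The 3 higher members were Mzb1 (1.43, SE 0.37, adjusted p = 0.0252), Pdia3 (0.46, SE 0.12, adjusted p = 0.0222) and Pdia4 (0.47, SE 0.12, adjusted p = 0.0276). The 4 lower members were Edem1 (-1.18, SE 0.23, adjusted p = 0.00803), Ckap4 (-0.64, SE 0.15, adjusted p = 0.0185), Eif2ak3 (-0.95, SE 0.25, adjusted p = 0.0245) and Herpud1 (-0.92, SE 0.26, adjusted p = 0.0326). Hspa5 (0.47, SE 0.16, adjusted p = 0.0655) and Pdia6 (0.39, SE 0.14, adjusted p = 0.0777) missed the threshold and passed without Ebf1+/- library 3 (0.0273 and 0.0395) or with all groups in 1 fit (0.0414 and 0.042), as did Dnajb11, lower, in that fit (0.0351). Ckap4 was thus called higher in the leukemias than in the wild type and lower than in Ebf1+/-.

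Calls in this comparison rested on single libraries. Without Ebf1+/- library 2, none of the 3 higher members passed (Mzb1 0.0532, Pdia3 0.074, Pdia4 0.0756), Eif2ak3 (0.0843) and Herpud1 (0.0728) were lost too, and Ddit3 (0.0349), Edem2 (0.0262) and Ssr2 (0.0393) passed as lower. Without Ebf1+/- library 1, Eif2ak3 (0.0542) and Herpud1 (0.0894) were lost, and Ern1 (0.0134) and Atf6 (0.027) passed. Without Ebf1+/- library 3, Pdia4 (0.0511) and Ckap4 (0.0579) were lost. Leaving out leukemia 1 lost Eif2ak3 (0.0514), Mzb1 (0.0527), Pdia4 (0.0626) and Herpud1 (0.0544), and leaving out leukemia 5 lost Pdia3 (0.053) and Pdia4 (0.0571). Eif2ak3 was also lost without leukemia 2 (0.0553) or 4 (0.0502), Herpud1 without leukemia 2 (0.0665) or 3 (0.0651), and Mzb1 without leukemia 3 (0.0566). Edem1 passed without any 1 library.

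The levels of the members were reordered between the groups. By mean FPKM, which is a level per length, the highest members in the wild type were Hsp90b1 at 310.1 ± 26.4 and Calr at 252 ± 33.9, whose ranges did not overlap. In the leukemias they were Mzb1 at 662 ± 124 and Calr at 372 ± 51.9, again without overlap, followed by Hsp90b1 at 280.3 ± 44.8 and Hspa5 at 273 ± 33.0, which overlapped. The lowest member was Derl3 in the wild type (3.47 FPKM) and Ern1 in the leukemias (2.18 ± 0.602 FPKM).

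Other genes of the same pathways, from lists written beside the members, were read in the leukemias against the wild type. These lists, too, were chosen with earlier results of these data known. In that comparison 20.7% of all genes were called higher and 24.1% lower. Of genes that Atf4 and Ddit3 are known to act on, 6 of 17 tested were called higher (35.3%) and 5 lower (29.4%). Trib3, a pseudokinase, stood at 1.32, 1.44 and 1.21 FPKM in the wild type, at 6.15, 5.00 and 2.32 in Ebf1+/-, and at 7.11, 7.93, 16.6, 15.5 and 11.1 in the leukemias (2.38, adjusted p = 0.000193). Asparagine synthetase (Asns) stood at 6.596, 26.8 and 51.9 FPKM in the wild type, at 16.2, 19.0 and 41.1 in Ebf1+/-, and at 0.427, 0, 0.0837, 0.0401 and 0 in the leukemias (adjusted p = 0.00027). The leukemia values rest on 7, 0, 2, 1 and 0 reads, so the size of the fold is set by the pseudocount (log2 fold changes of -8.43 to -3.72 over the alternatives). The 2 genes thus lay on opposite sides of the wild type, both without overlap. The serine and one-carbon enzymes Phgdh (1.16, adjusted p = 0.000822) and Shmt2 (1.29, adjusted p = 0.000574) were higher.

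Of other degradation genes, 2 of 17 were called higher (11.8%, against 20.7% of all genes) and 9 lower (52.9%, against 24.1%), or 6 lower with quantile scaling. Edem3, a relative of Edem1, stood at 62.2, 44.4 and 50.4 FPKM in the wild type, at 19.6, 26.5 and 20.9 in Ebf1+/-, and at 13.4, 14.2, 13.7, 12.5 and 13.5 in the leukemias (-1.87, adjusted p = 1.2e-05). As with Herpud1, the Ebf1+/- libraries lay between the other 2 groups. Os9 was lower (-0.43, adjusted p = 0.0196), a call lost without wild-type library 1 (0.0593) or 3 (0.0634). Herpud2 was lower (-0.35, adjusted p = 0.0195), a call lost without wild-type library 2 (0.0624) or 3 (0.0601) and with all groups in 1 fit (0.124). The ER ubiquitin-conjugating enzyme Ube2j1 was higher (0.82, adjusted p = 0.00527). Of other ER folding enzymes, 3 of 18 were called higher (16.7%) and 4 lower (22.2%), close to the shares of all genes. Txndc11, a thioredoxin-domain protein of the ER, stood at 84.3, 55.4 and 54.4 FPKM in the wild type, at 36.0, 33.5 and 25.7 in Ebf1+/-, and at 13.4, 13.2, 12.4, 13.3 and 13.5 in the leukemias (-2.19, adjusted p = 1.5e-05). Its 3 groups did not overlap. The ER peroxiredoxin Prdx4 was higher (0.86, adjusted p = 0.000359).

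Of the oligosaccharyltransferase, which adds N-glycans to proteins entering the ER, 4 of 12 genes were called higher (33.3%, against 20.7% of all genes) and 0 lower (against 24.1%), led by Krtcap2 (0.94, adjusted p = 0.000229) and Tusc3 (0.89, adjusted p = 0.00137). Of other translocon, signal recognition particle and signal peptidase genes, 4 of 19 were called higher and 4 lower (21.1% each, near the shares of all genes), with Spcs2 higher (0.56) and Tram2 lower (-1.88). Of genes of ER exit and COPII vesicles, 0 of 15 were called higher and 5 lower (33.3%), among them the coat subunits Sec23b (-0.59) and Sec24d, which was 7.52 ± 2.57 FPKM in the wild type and 1.34 ± 1.29 in the leukemias. Of other sensors and eIF2 alpha pathway genes, 3 of 13 were called higher (23.1%) and 5 lower (38.5%), with the amino acid sensor kinase Eif2ak4 higher (0.65, adjusted p = 0.000982) and the haem-regulated kinase Eif2ak1 lower (-0.68, adjusted p = 0.000967). The cytosolic and mitochondrial chaperones, which lie outside the ER, were called higher for 10 of 19 genes (52.6%) and lower for 0, and for 8 and 0 with quantile scaling. Among them were the chaperonin subunit Cct3 (0.90, adjusted p = 0.00134) and Hsp90ab1 (0.97, adjusted p = 0.00122), whose call was lost with quantile scaling (0.39, adjusted p = 0.0882). No gene of these lists was called in Ebf1+/- against the wild type, though Edem3 passed there, lower, with all groups in 1 fit (adjusted p = 0.0132).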

How the data were processed

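The submitters deposited 1 table of FPKM values, which the authors made per the labels from single samples; the values are reads per kilobase of gene length scaled to the library total. Per the submitters' processing notes, BWA 0.7.12 is listed for the wild-type and leukemia libraries and TopHat2 and Cufflinks for the Ebf1+/- libraries, with mm10 (GRCm38). Which tool counted reads, and on which annotation, is not given in the sources used here. All 11 columns were mapped to samples by name, and 0 columns were left unused. Library totals were worked out from the common steps between FPKM values, and reads were then recovered with these totals. Every value came out as a whole number of reads within 0.001 read, for 100% of 17380 genes. The length of each gene was searched for in the same step, so genes with few values above 0 fit easily. Reads carry no molecular identifiers, so depth speaks of counting error only.

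Groups were compared in pairs with limma 3.58.1 (R 4.3.3; empirical Bayes with a trend) on log2(FPKM + 1), for genes whose mean over the compared libraries reached 1 FPKM, with Benjamini-Hochberg adjustment and a threshold of 0.05. The test was checked on simulated data. There the share of false calls lay above the threshold in both leukemia comparisons, and smaller changes were recovered less often than larger ones. The simulation gave all groups the same dispersion and changed only a small part of the genes, unlike these data. The share of false calls in these data may therefore differ from the simulated share. limma's voom was run on the recovered reads with library totals as an alternative. Wild-type and Ebf1+/- replicates are separate pools of mice and leukemias are separate mice. The labels number the replicates, and same-numbered wild-type and Ebf1+/- libraries deviated together from their group means (r 0.65, 0.32 and 0.69). With leukemias they did not (-0.14 to 0.07). Differently numbered libraries were not compared in this way. Same-numbered wild-type and Ebf1+/- libraries were taken as pairs for the within-pair counts and for a fit with a block. The p-values and SEs printed for these groups come from the main fit, which does not use the pairs. With the pairs as a block, still 0 genes were called in Ebf1+/- against the wild type.

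The members and all gene lists were chosen with earlier results of these data known. Library values are printed for the 6 sensors and transcription factors, Hspa5, Hsp90b1 and the 3 genes of smallest p in the other role groups; of each further list, the 2 genes of smallest p are named, or 4 where over 10 passed. Mzb1, Sdf2l1 and Derl3 were added after their values were seen. Gene positions are from GENCODE M21 (GRCm38).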

Additional observations from a re-analysis of the deposited data

Results flagged for a closer look

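One of the 38 members stood out within a group by the gap of an extreme library. Pdia3 in leukemia 5 was at 256.7 FPKM, the highest of 5 leukemias, and its gap to the next library was 0.74 of the whole range, past the 95% critical value of Dixon's test for 5 values. Chance alone would mark about 1 in 20 groups.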

How the results depend on the processing

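Alternatives changed the pseudocount, filter, scaling, the libraries sharing a fit, or the tool (voom on recovered reads), left out each library in turn, or added a replicate block; leaving out both libraries numbered 2 and voom with library totals were chosen after seeing the data. The planned TMM scaling of voom was not run, since the deposited values are FPKM. No member changed direction while called. Against the wild type, leaving out 1 library gave 10 to 14 members higher and 5 to 8 lower (5 lower without wild-type library 1). Of all genes, 16.0% to 19.4% were then called higher and 18.7% to 23.6% lower. All groups in 1 fit gave 5 members lower, beside 19.9% of all genes. With the replicate block, which pairs nothing there, 11 members were higher and 6 lower, beside 15.1% and 18.4% of all genes. In Ebf1+/- against the wild type, genes called were 3 with a pseudocount of 0.1, 2 with median-ratio scaling, 23 with all groups in 1 fit (1 member higher, Ckap4) and 0 to 5 with 1 library left out (5 without Ebf1+/- library 3). In leukemia against Ebf1+/-, all groups in 1 fit gave 5 members higher, beside 1197 of all 11161 genes. The replicate block gave 0 members higher, 0 lower and 944 genes called. Leaving out 1 library there gave 0 to 4 members higher and 2 to 5 lower (2 lower without leukemia 1 or 2, 1 higher without leukemia 1 or 5). The cause of these changes was not tested. At the filter of 5 FPKM Ern1 was not tested.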

Other observations

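The ratio of 1 degradation gene, Herpud1, to the main chaperone gene Hspa5 differed across the libraries. Both were already called in opposite directions in leukemia against wild type, so their ratio restates those calls. Herpud1 FPKM divided by Hspa5 FPKM was 1.77, 1.096 and 0.965 in the wild type, 0.909, 0.548 and 0.329 in Ebf1+/-, and 0.227, 0.218, 0.173, 0.340 and 0.127 in the leukemias. Leukemia 4 was level with the lowest Ebf1+/- library. Pdia3 divided by Hspa5 was 0.699, 0.749 and 0.730 in the wild type and 0.721 to 0.993 in the leukemias, a much narrower span. The Mzb1 to Hspa5 ratio was 2.69, 1.51 and 0.469 in the 3 Ebf1+/- libraries, the widest spread of the ratios computed in any group, and 2.14 to 2.66 in the leukemias.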
